A study of Mus musculus with 8 samples.

Results

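Egr1, Egr2, Egr3, Nr4a1, Nr4a2, Nr4a3, Ier2, Ier5, Klf4 and Klf6 are transcription regulators. Most of their genes are switched on within minutes to hours when a lymphocyte is stimulated, whereas Klf4 is known for holding lymphocytes in quiescence. These 10 genes were chosen from the tRA against control values of the same 8 mice, so their differences between the groups are described here without a test. All 10 were found by Ensembl identifier among the 51826 genes of the count table, and all 10 are among the 16484 genes that passed the filter on low counts. RNA was sequenced from total splenocytes of female Balb/c mice, with 4 mice in the tRA group and 4 in the control group. The tRA mice received all-trans-retinoic acid, the active form of vitamin A, by mouth at 1 mg/kg body weight each day from weaning at 3 weeks to 3 months of age, and the control mice received the vehicle, canola oil, over the same time. The sample titles name the groups, while the treatment note attached to the samples gives the tRA dose for all 8, so the grouping follows the titles. No mouse received pristane, all were 3 months old, and red blood cells were lysed when the splenocytes were isolated. Total counts on genes lay between 30919272 and 37539631 in the control mice and between 31810417 and 35165876 in the tRA mice.

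The Egr proteins are zinc finger transcription factors that are induced through the MAP kinase cascade, which activates serum response factor and its Elk partners at their promoters. The Nr4a proteins are orphan nuclear receptors induced by antigen receptor signaling through calcium, MEF2 and CREB, and Nr4a1 and Nr4a2 can pair with the retinoid X receptor. In the spleen, both families are known as early readouts of B and T cell stimulation and as regulators of tolerance. Klf6 and the Ier genes belong to the same early response.

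In 9 of the 10 genes, tRA mice 3 and 4 had the lowest values of all 8 mice, and tRA mouse 1 was the highest of the tRA mice in all 10. Levels are in CPM, which are counts after division by the library total and by edgeR's TMM factor for that library. On average over the 10 genes, log2 CPM differed from the control mean by 0.27 in tRA mouse 1, by -0.11 in tRA mouse 2, by -1.47 in tRA mouse 3 and by -1.21 in tRA mouse 4. The control mice lay between -0.11 and 0.09 on the same scale. On this scale tRA mouse 1 was above all control mice, tRA mouse 2 was at their lower edge and tRA mice 3 and 4 were far below them, so that a mean over the tRA group describes none of its mice well. The pattern was looked for after the values were seen, and over all genes tested tRA mice 3 and 4 were the lowest pair in 10.4%. Total counts of these mice, 35165876 and 32042754, lay within the range of the other mice. Their TMM factors, 1.05 and 1.02, were the highest of the 8, where the other mice lay between 0.964 and 1.01. In bulk RNA, fewer cells that express a gene and less RNA per cell cannot be told apart.

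**Figure D1:**
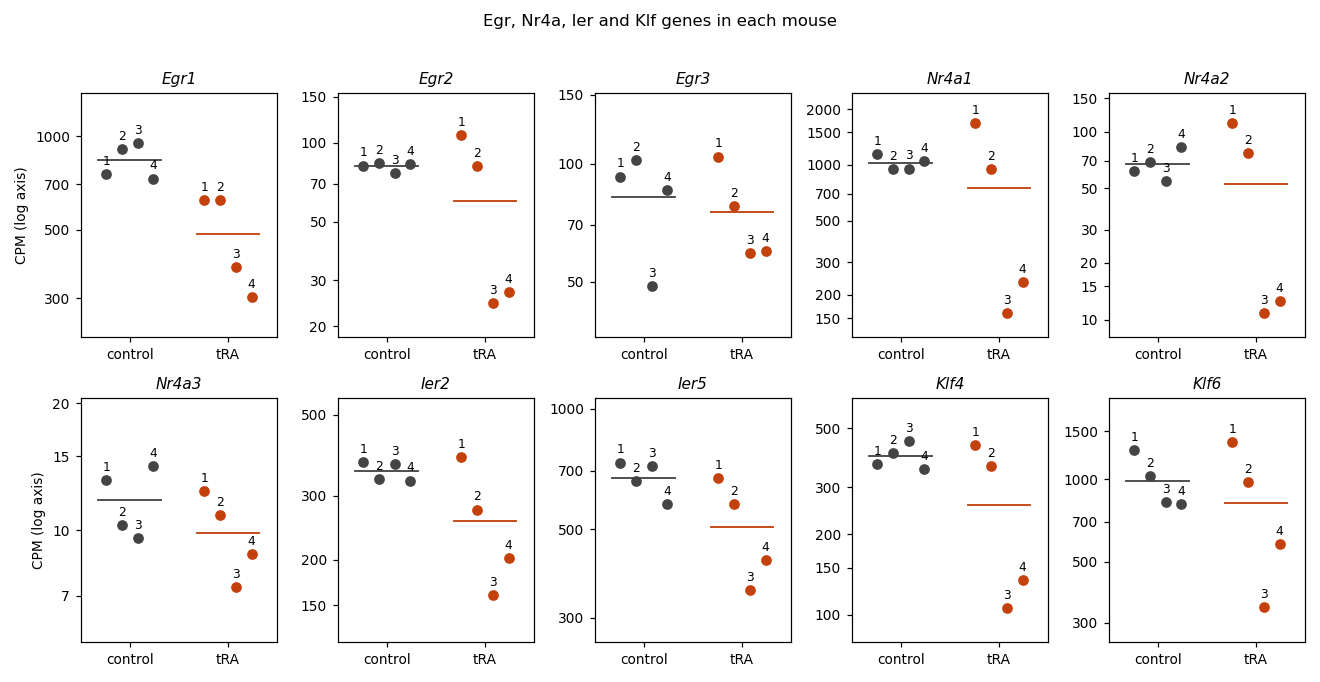
CPM of each of the 10 genes (log axis, a different range in each panel) in the 4 control and 4 tRA mice; each point is a mouse with its replicate number, and the line is the group mean. In Egr2, Nr4a1, Nr4a2 and Klf4, tRA mouse 2 sits near the control mice, tRA mouse 1 sits near them in Klf4 and above all of them in the others, and tRA mice 3 and 4 sit far below, while in Egr1 all 4 tRA mice sit below the control mice.

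Egr1, the best known member of its family and a direct readout of MAP kinase signaling, was the member with the largest difference between the groups in edgeR over all 8 mice. Its CPM was 754, 909, 952 and 731 in control mice 1 to 4 and 624, 623, 378 and 302 in tRA mice 1 to 4. Every tRA mouse was below every control mouse, with tRA mice 3 and 4 at 45.2% and 36.1% of the control mean and tRA mice 1 and 2 at 74.6% and 74.5%. The means were 836 ± 110.5 and 482 ± 167 CPM (SD, n = 4 each), a log2 fold change of -0.80 ± 0.22 (SE). By limma-voom, which averages log values, the difference was larger for Nr4a1 at -1.05 and Nr4a2 at -1.04 than for Egr1 at -0.85, and these genes also passed Egr1 with the replicate number as a block. Without tRA mouse 1, Nr4a1 at -1.20, Nr4a2 at -1.01 and Klf4 at -0.96 passed Egr1 at -0.94. Egr1 was the only member of the 10 whose groups did not overlap. Over all genes tested, every tRA mouse was below every control mouse in 269 genes, or 1.63%, and above in 315 genes, or 1.91%. Egr1 lies on chromosome 18 from 34859823 to 34864984 on the plus strand (GRCm38, GENCODE M21).

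Egr2 and Egr3, which are linked to T cell anergy and to the restraint of lymphocyte activation, did not share this separation. Egr2 was at 82.0, 83.8, 76.9 and 83.1 CPM in the control mice and at 107, 81.7, 24.5 and 27.1 CPM in the tRA mice. The control mice lay within 1.09-fold of each other, tRA mice 1 and 2 were at or above them, and tRA mice 3 and 4 were at 30.1% and 33.3% of the control mean. The groups overlapped, and the log2 fold change was -0.44 ± 0.40 (SE). Egr3 was at 92.7, 102, 48.8 and 85.5 CPM in the control mice and at 104, 78.2, 59.3 and 59.8 CPM in the tRA mice. Here control mouse 3 was the lowest of the 8, below tRA mice 3 and 4, so that Egr3 is the member in which those mice were not the lowest pair. Its log2 fold change was -0.13 ± 0.23 (SE), the smallest of the 10 in edgeR over all 8 mice. Without tRA mouse 3, Nr4a2 at -0.01 and Klf6 at -0.01 were smaller than Egr3 at -0.03. Without tRA mouse 4, Nr4a2 at -0.02 was smaller than Egr3 at -0.03. Egr2 spans 67535475 to 67542188 on chromosome 10 and Egr3 spans 70077203 to 70082614 on chromosome 14, both on the plus strand.

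Nr4a1, also called Nur77 and widely used as a reporter of antigen receptor signaling, differed more between tRA mice than between the groups. It stood at 1149.8, 952, 956 and 1046 CPM in the control mice and at 1679.5, 946, 159 and 233 CPM in the tRA mice. tRA mouse 1 was above all control mice at 164% of their mean, tRA mouse 2 was just below them, and tRA mice 3 and 4 were at 15.5% and 22.7%. The highest tRA mouse had 10.6 times the CPM of the lowest, against 1.21 times among the control mice. The means were 1026 ± 93.2 and 754 ± 711 CPM (SD, n = 4 each), and the log2 fold change of -0.44 ± 0.58 (SE) was smaller than its error. Without tRA mouse 1 the log2 fold change was -1.20, and without tRA mouse 3 it was -0.11.

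Nr4a2, known as Nurr1, had almost the same course at a far lower level. It was at 61.5, 68.7, 54.8 and 82.5 CPM in the control mice and at 110.4, 76.6, 10.8 and 12.5 CPM in the tRA mice. tRA mouse 1 was again the highest of the 8, at 165% of the control mean, and tRA mice 3 and 4 were the lowest, at 16.2% and 18.7%. The highest tRA mouse had 10.2 times the CPM of the lowest, and the log2 fold change was -0.35 ± 0.61 (SE), or -1.01 without tRA mouse 1 and -0.01 without tRA mouse 3. Nr4a3, known as Nor1 and unable to pair with the retinoid X receptor, varied much less. It was at 13.2, 10.3, 9.56 and 14.2 CPM in the control mice and at 12.4, 10.9, 7.32 and 8.80 CPM in the tRA mice. tRA mice 3 and 4 were still the lowest, at 62.0% and 74.5% of the control mean, and the log2 fold change was -0.26 ± 0.18 (SE). Nr4a1 lies on chromosome 15 (101254269 to 101274795, plus strand), Nr4a2 on chromosome 2 (57106830 to 57124003, minus strand) and Nr4a3 on chromosome 4 (48045153 to 48086447, plus strand).

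Klf4 and Klf6 are Krüppel-like zinc finger factors, and Klf4 is known for holding lymphocytes in quiescence and for its part in monocyte development. Klf4 was at 367, 402, 447 and 351 CPM in the control mice and at 432, 362, 106 and 135 CPM in the tRA mice. tRA mice 1 and 2 lay within the control range, and tRA mice 3 and 4 were at 27.1% and 34.4% of the control mean. The log2 fold change of Klf4 was -0.60 ± 0.38 (SE). Klf6 was at 1274, 1024, 825 and 810.0 CPM in the control mice and at 1364, 980.3, 343 and 582 CPM in the tRA mice, with tRA mouse 1 the highest of the 8 and tRA mice 3 and 4 the lowest. Its log2 fold change was -0.27 ± 0.34 (SE), and without tRA mouse 3 it was -0.01. Klf4 spans 55527143 to 55532466 on chromosome 4, minus strand, and Klf6 spans 5861482 to 5870394 on chromosome 13, plus strand.

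Ier2 and Ier5 are small immediate early genes, of which Ier5 is known to act on the heat shock factor HSF1. Ier2 was at 370.1, 333, 366 and 330.0 CPM in the control mice and at 383, 275, 160.1 and 202 CPM in the tRA mice. tRA mouse 1 was above all control mice, and the other tRA mice were below all of them. Ier5 was at 734, 659, 720.3 and 578 CPM in the control mice and at 670.4, 578, 351 and 419 CPM in the tRA mice. tRA mouse 1 lay within the control range, and tRA mouse 2 lay just under its lower edge. The log2 fold changes were -0.46 ± 0.21 for Ier2 and -0.41 ± 0.18 for Ier5 (SE). Ier2 spans 84661331 to 84662852 on chromosome 8 and Ier5 spans 155096361 to 155099636 on chromosome 1, both on the minus strand, and no other annotated gene overlaps any of the 10.

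All 10 log2 fold changes were negative, as the choice of the genes from these values would give, with a median of -0.43 against 0.0014 over all genes tested. The sign of each was the same under all 15 other ways of fitting the data, but the size often rested on single mice. Egr3 was at -0.0057 without control mouse 2 and at -0.32 without control mouse 3, and Klf6 at -0.12 without control mouse 1. The median of the 10 was -0.80 without tRA mouse 1, -0.16 without tRA mouse 3 and -0.21 without tRA mouse 4. It lay between -0.44 and -0.38 when a control mouse was left out. The SD of log2 CPM was larger among the tRA mice than among the control mice in 9 of the 10 genes, Egr3 being the exception, and in 46.8% of all genes tested. For Nr4a1 these SDs were 1.62 and 0.13, and for Egr2 they were 1.08 and 0.06, where the medians over all genes tested were 0.18 in either group. In the fit across all genes by edgeR (quasi-likelihood, Benjamini-Hochberg), 0 of the 16484 genes tested (0%) reached a false discovery rate (FDR) under 0.1. Unadjusted p-values under 0.05 were found for 485 genes with higher values in tRA mice, or 2.94%, and for 585 with lower values, or 3.55%. DESeq2 gave 27 genes at an FDR under 0.1, or 0.198% of the 13625 to which it gave an adjusted p. Without tRA mouse 4, edgeR gave 3 genes, and without tRA mouse 1 the genes at an unadjusted p under 0.05 numbered 2105 in place of 1070, against 657 without tRA mouse 4.

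Between genes, levels were compared as CPM per kilobase of exon, since a longer transcript collects more reads. In the control mice Nr4a1 was the highest of the 10 at 292 ± 26.6 CPM per kilobase (SD, n = 4). Ier2 at 229.7 ± 13.9, Klf6 at 224 ± 49.5, Ier5 at 205 ± 21.6 and Egr1 at 187 ± 24.6 came next and overlapped with their neighbours. Klf4 followed at 128 ± 13.9, apart from Egr1 by more than either SD. Egr2 at 24.0 ± 0.918, Egr3 at 18.7 ± 5.30 and Nr4a2 at 16.5 ± 2.92 formed a lower level, and Nr4a3 was the lowest at 1.97 ± 0.372. In the tRA mice the means ran from 215 ± 203 CPM per kilobase for Nr4a1 to 1.64 ± 0.374 for Nr4a3. Klf6 at 186 ± 102 then stood above Ier2 at 167 ± 64.2, a difference well within either SD, and the remaining order of the means was that of the control mice. Single tRA mice did not all keep this order. In tRA mice 3 and 4, Nr4a1 at 159 and 233 CPM was below Ier5 at 351 and 419 CPM, whose exons are shorter.

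Relatives of these genes shared the pattern in part. Of 15 Egr, Ier and Klf relatives and Nab corepressors, all were tested, 12 had a negative and 3 a positive log2 fold change, the median was -0.15 (-0.28 without tRA mouse 1, -0.04 without tRA mouse 3 and -0.08 without tRA mouse 4), and 0 had an FDR under 0.1 by edgeR or by DESeq2. At an unadjusted p under 0.05, 2 were higher, Klf3 and Nab1, and 1 was lower, Egr4, against 2.94% and 3.55% of all genes tested. All lists in this report were chosen with earlier results of these data known, so counts within them are descriptions and not tests. tRA mice 3 and 4 were the lowest pair in 7 of the 15. Klf2, which keeps T cells quiescent and in circulation, was the most abundant per length and stood at 1577, 1045, 1077 and 874 CPM in the control mice and at 1424, 818, 417 and 524 CPM in the tRA mice. It thus repeated the low values of tRA mice 3 and 4, with a log2 fold change of -0.52 ± 0.33 (SE) and an FDR of 0.793 by edgeR. Ier5l, at 5.74 ± 0.288 CPM in the control mice, was at 5.53, 5.04, 1.44 and 1.92 CPM in the tRA mice. Egr4 was barely detected, at 0.549 to 1.47 CPM in the control mice and 0.0542 to 0.794 CPM in the tRA mice. Klf3, a repressor of the family, was higher in every tRA mouse than in any control mouse, at 313 ± 28.5 against 256 ± 16.9 CPM (SD, n = 4 each), with a log2 fold change of 0.29 ± 0.08 (SE) and an FDR of 0.757 by edgeR. Klf7 had a log2 fold change of 0.16 ± 0.17 (SE). Nab1, which binds Egr proteins and represses their activity, had a log2 fold change of 0.14 ± 0.06 (SE) and was named after its values were seen.

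Genes of the routes that induce the Egr and Nr4a families differed little in RNA level, while the activity of these routes was not measured. The list of MAP kinase and serum response factor genes held 25 genes, 17 with a positive and 8 with a negative log2 fold change and a median of 0.04. By edgeR and DESeq2 0 of the 25 had an FDR under 0.1, and at an unadjusted p under 0.05 there were 2, Srf and Map2k2, both lower in tRA mice. Srf, the serum response factor itself, was at 138, 126, 128 and 124 CPM in the control mice and at 123, 112, 110.2 and 110.4 CPM in the tRA mice. The tRA mice were all below the control mice, tRA mouse 1 by little, and the log2 fold change was -0.18 ± 0.06 (SE) with an FDR of 0.757 by edgeR. Map2k2, a MAP kinase kinase named after its values were seen, had a log2 fold change of -0.15 ± 0.06 (SE). Crem at -0.18 ± 0.14, Mrtfb at 0.16 ± 0.11 and Rasgrp1, the most abundant per length, at 0.11 ± 0.09 did not pass the test. The list of calcium, NFAT and MEF2 genes held 23 genes with a median log2 fold change of 0.03, of which 14 were positive and 9 negative, and 0 passed by edgeR, by DESeq2 or at an unadjusted p under 0.05. Its extremes were Orai1 at -0.15 ± 0.10, Mef2c at -0.12 ± 0.11, Ppp3cb at 0.14 ± 0.08 and Plcg1 at 0.13 ± 0.08, and Plcg2, the most abundant per length, was at 0.01 ± 0.07. tRA mice 3 and 4 were the lowest pair in 4 of the 25 genes of the first list and in 0 of the 23 of the second, against 10.4% of all genes tested. Without control mouse 3 the medians of these lists were -0.0022 and -0.0004.

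Retinoid and cofactor partners of the Nr4a receptors showed no difference that passed a test. Of 11 genes 10 were tested, 8 with a positive and 2 with a negative log2 fold change, with a median of 0.06 (-0.01 without control mouse 3) and with 0 genes called by edgeR, by DESeq2 or at an unadjusted p under 0.05. Rarb, a retinoic acid receptor gene that retinoic acid is known to induce, was at 1.38, 1.71, 1.07 and 1.49 CPM in the control mice and at 1.62, 2.11, 1.74 and 2.14 CPM in the tRA mice. The groups overlapped at this low level, at a locus that also overlaps Top2b, with a log2 fold change of 0.43 ± 0.21 (SE) and an FDR of 0.776 by edgeR. Ncor1 at 0.11 ± 0.14, Ncoa3, the most abundant per length, at 0.08 ± 0.09, Rarg at -0.05 ± 0.09 and Rxrb at -0.04 ± 0.06 were within their SEs.

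Genes reported downstream of the Egr and Nr4a factors differed much less than the members did. On average over the list, log2 CPM differed from the control mean by 0.05 in tRA mouse 1, -0.03 in tRA mouse 2, and -0.18 in each of tRA mice 3 and 4, where the lowest control mouse was at -0.07. Of the 21, all tested, 10 had a positive and 11 a negative log2 fold change, the median was -0.01 (0.01 when scaled by library size alone), and 0 passed by edgeR, by DESeq2 or at an unadjusted p under 0.05. tRA mice 3 and 4 were the lowest pair in 6 of the 21, among them Ctla4 and Socs1. Ctla4, an inhibitory receptor of T cells, was at 47.5, 45.2, 42.7 and 53.9 CPM in the control mice and at 64.4, 45.0, 21.2 and 18.3 CPM in the tRA mice. tRA mouse 1 was the highest of the 8 and tRA mice 3 and 4 were the lowest, with a log2 fold change of -0.35 ± 0.33 (SE) that ranged from -0.75 to -0.12 when each mouse was left out. Socs1 had a log2 fold change of -0.44 ± 0.22 (SE), with a range from -0.75 to -0.30. Dgka, a diacylglycerol kinase that dampens T cell signaling and the most abundant per length, was at 0.15 ± 0.08, and Tox2 at 0.11 ± 0.22 was near 2 CPM throughout.

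Lymphocyte activation genes shared the pattern in part too. All 20 were tested, 15 with a negative and 5 with a positive log2 fold change and a median of -0.16 (-0.32 without tRA mouse 1, -0.08 without tRA mouse 3 and -0.10 without tRA mouse 4), and tRA mice 3 and 4 were the lowest pair in 10. By edgeR and DESeq2 0 had an FDR under 0.1, and at an unadjusted p under 0.05 there were Ifng, lower in tRA mice, and Cd44, higher. Bhlhe40, a transcription factor of activated T cells, was at 221, 205, 159.8 and 201 CPM in the control mice and at 267, 201, 56.1 and 69.2 CPM in the tRA mice. Nfkbia, the NF-κB inhibitor and the most abundant per length, was at 426, 399, 345 and 328 CPM in the control mice and at 480.4, 339.7, 188 and 237 CPM in the tRA mice. In each gene tRA mouse 1 was the highest of the 8 and tRA mice 3 and 4 the lowest. Their log2 fold changes were -0.41 ± 0.41 and -0.27 ± 0.24 (SE), and they ranged from -0.86 to -0.14 and from -0.55 to -0.09 when each mouse was left out. Ifng was at 15.6 ± 1.64 and 10.7 ± 3.24 CPM (SD, n = 4 each), with a log2 fold change of -0.55 ± 0.18 (SE) and an FDR of 0.757 by edgeR. Cd44, a marker of antigen experience, had a log2 fold change of 0.17 ± 0.07 (SE), and Il2, at 0.16 ± 0.36, was below 1 CPM in every mouse.

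**Figure D2:**
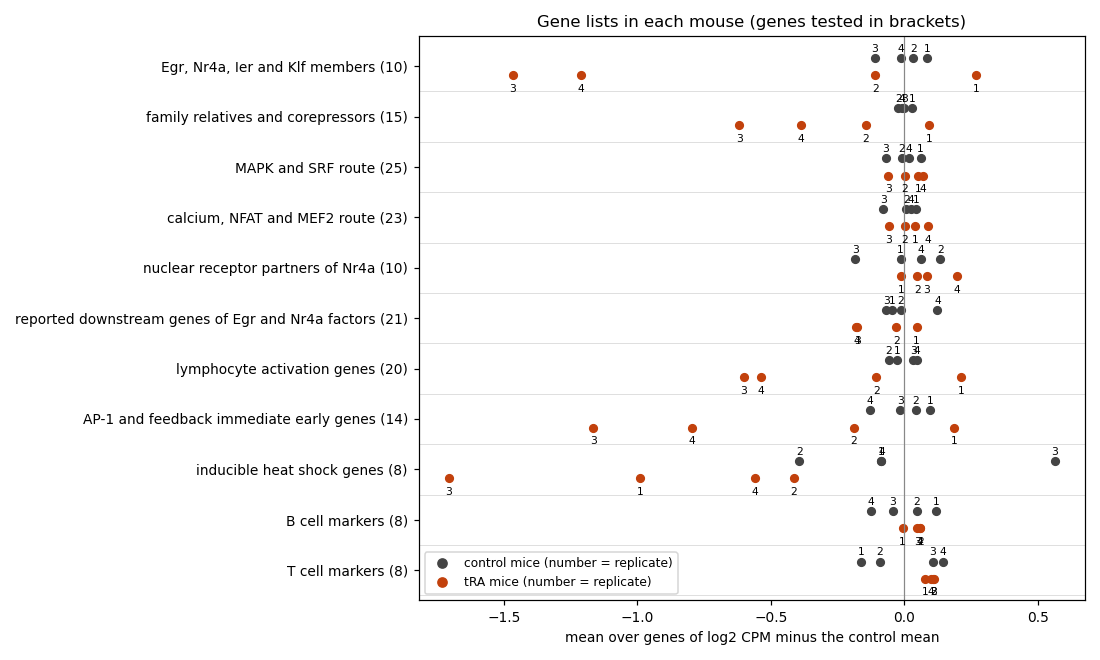
Mean over the genes tested of log2 CPM minus the control mean, for the 10 members, 8 other gene lists and the B and T cell markers; each point is a mouse with its replicate number. In the members, tRA mice 3 and 4 sit at -1.47 and -1.21 while tRA mouse 1 sits at 0.27, and in the heat shock genes tRA mouse 1 is instead low at -0.99.

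AP-1 and feedback genes of the same early response had the members' pattern in 11 of 14 genes, with all 14 log2 fold changes negative and a median of -0.40. This median was -0.73 without tRA mouse 1, -0.18 without tRA mouse 3 and -0.24 without tRA mouse 4. Fos, the most abundant per length, was at 3337, 3230.3, 3302 and 2866 CPM in the control mice and at 3563, 2762, 1117 and 1420.2 CPM in the tRA mice. Its tRA mouse 1 was above all control mice and tRA mice 3 and 4 were far below, with a log2 fold change of -0.52 ± 0.30 (SE). Jund had a log2 fold change of -0.79 ± 0.32 (SE), Fosb -0.71 ± 0.23, Dusp6 -0.04 ± 0.16 and Fosl2 -0.02 ± 0.26, and the last 2 changed sign when single mice were left out. By edgeR 0 of the 14 had an FDR under 0.1, against 1 by DESeq2, Jun, which was named after its values were seen, and 3 were lower at an unadjusted p under 0.05. The 8 inducible heat shock genes were ordered otherwise on average, although tRA mice 3 and 4 were the lowest pair in 4 of them. The mean of their log2 CPM differed from the control mean by -0.99 in tRA mouse 1, -0.41 in tRA mouse 2, -1.71 in tRA mouse 3 and -0.56 in tRA mouse 4, so that tRA mouse 1, highest for the members, was among the lowest here. Their median log2 fold change was -0.96, with 0 genes called by edgeR, 1 by DESeq2 (Bag3, named after its values were seen) and 8 lower at an unadjusted p under 0.05. Over all genes, 3.55% were lower at that p by edgeR, and DESeq2 called 0.198% of those with an adjusted p. Both lists were chosen with earlier results of these data known, so these counts describe the lists and do not test them. Hspa1a had a log2 fold change of -1.35 ± 0.45 (SE), Hspa1b -1.13 ± 0.43, Hsp90aa1 -0.43 ± 0.19 and Hspa8 -0.34 ± 0.15.

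The genes outside the 10 whose course over the mice was most like theirs were found by the Pearson correlation, over the 8 mice, of log2 CPM centred within each group with the centred mean of the members. Among 13568 genes with a mean of at least 1 CPM, Mir23a came first, followed by Bhlhe40, Fam83d, Tagap and Grasp. Mir23a is a short microRNA gene, and it was at 2.72 to 4.05 CPM in the control mice and at 5.65, 3.37, 0.407 and 0.611 CPM in the tRA mice. Tagap, a gene of activated T cells, was at 280.0, 211, 68.4 and 79.0 CPM in the tRA mice against 178 to 206 CPM in the control mice. Grasp was at 43.9, 28.5, 7.84 and 9.35 CPM in the tRA mice against 27.9 to 38.2 CPM in the control mice. Bhlhe40, Tagap and Grasp overlap annotated antisense transcripts, whose reads cannot be told apart from theirs without strand. The correlations mostly measure the separation of tRA mice 3 and 4 from tRA mice 1 and 2. They served to choose these genes, and the value of each gene is not given as a result.

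Markers of the cells of the spleen were compared with the members next. There were 15 marker lists with 102 genes in the count table, and the summed CPM was lowest in tRA mice 3 and 4 in 1 list, that of plasma cells. All 8 B cell markers were tested and their sum was 7955, 7585, 7199 and 6773 CPM in the control mice and 7336, 7564, 7562 and 7477 CPM in the tRA mice, with Cd79a the most abundant per length. All 8 T cell markers were tested and their sum was 1365, 1405, 1675 and 1648 CPM in the control mice and 1614, 1567, 1613 and 1583 CPM in the tRA mice, with Lck the most abundant per length. In tRA mice 3 and 4 the B cell sum was thus 102% and 101% of the control mean and the T cell sum 106% and 104%, where the sum of the 10 members was 1599 and 1981 CPM against 4502 ± 323 in the control mice (SD, n = 4). The 6 plasma cell markers summed to 944, 1070.2, 809 and 820.0 CPM in the tRA mice and to 1091 ± 93.4 CPM in the control mice (SD, n = 4), with Jchain the most abundant per length and Irf4 also on the list of reported downstream genes. Irf4 was at 367, 302, 159 and 178 CPM in the tRA mice. Without it the sums of the tRA mice were 577, 768, 651 and 642 CPM. Those of the control mice were 794, 760, 849 and 963 CPM. tRA mouse 1 was then the lowest, tRA mice 3 and 4 were still below every control mouse, and tRA mouse 2 lay within the control range. The 7 patrolling monocyte markers, with Spn the most abundant per length, summed to 686, 743, 718 and 687 CPM in the control mice and to 682, 712, 823 and 832 CPM in the tRA mice. tRA mice 3 and 4 had the highest sums, but 4 of the 7 markers had a negative log2 fold change, and without Spn the sum was 478 in tRA mouse 3, below control mouse 2 at 515.5. For 5 classical monocyte markers, Ly6c2, Ccr2, F13a1, Vcan and Fn1, the sum was 104, 279, 256 and 181 CPM in the control mice and 186, 236, 339 and 288 CPM in the tRA mice. tRA mice 3 and 4 had the highest of these sums, with control mouse 2 close to tRA mouse 4, and 4 of the 5 were higher in the tRA mice by log2 fold change and 1 lower. This order rested on Fn1, at 222 and 168 CPM in tRA mice 3 and 4 and 154 in control mouse 2. Ccr2 was highest in control mouse 2 at 75.5 CPM and Ly6c2 in control mouse 4 at 27.5. F13a1 was highest in tRA mouse 4 at 25.6 CPM and Vcan in tRA mouse 3 at 0.895. The 7 neutrophil precursor markers, led by Ngp, summed to 217, 266, 294 and 424 CPM in the tRA mice and to 577 ± 70.1 CPM in the control mice (SD, n = 4), so that tRA mouse 1 was the lowest. The 6 erythroid markers found, led by Hbb-bs, summed to 811, 1526, 2396 and 491 CPM in the control mice and to 2286, 623, 3541 and 587 CPM in the tRA mice. This sum was high in tRA mice 1 and 3 and low in tRA mice 2 and 4, which separates the mice in another way than the members do. No gene described from these lists was at 0 in any mouse, and the part of the monocyte, plasma cell, neutrophil precursor and erythroid differences in the members' values was not tested.

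Promoters were searched because several members moved together from mouse to mouse. The sequences are those of RefSeq on GRCm38.p6, taken as the 250 bases before each annotated start, and 7 of the 10 members matched with 11 windows, 5 of them of Egr2. Egr1, Egr3 and Ier2 had no entry in the set of promoter sequences used here. The motifs, read on both strands, were TGACG, the core of the cAMP response element bound by CREB, the full element TGACGTCA, the CArG box of serum response factor, the Egr site GCGNGGGCG, the Nr4a site AAAGGTCA, the AP-1 site TGANTCA, and direct repeats of the retinoic acid receptor sequence AGGTCA spaced by 2 or 5 bases. TGACG was found 4 times each in the windows of Nr4a1, Nr4a2 and Nr4a3, a number that 0.137% of all 32817 promoter windows reach, while 17.7% hold it at least once. It was also found 2 times in each of 3 overlapping windows of Egr2, at the same sites, a number that 3.90% of all windows reach, and 1 time in the window of Klf4. Nr4a1 and Nr4a2, which differed most between tRA mice, and Nr4a3, which differed least in that family, thus have the same number in these windows. In GENCODE, however, the 152 bases of the Nr4a3 window nearest the RefSeq start are exon. They hold 1 of its TGACG matches, 147 bases before that start. The CArG box, present in 1.47% of all windows, was found in 4 of the 5 windows of Egr2, of which 3 overlap and share a box, so that there are 2 distinct boxes. The Egr site, present in 4.70%, was found in the windows of Nr4a1, Nr4a2 and Klf4. The full element (1.55% of all windows), the Nr4a site (1.34%), the AP-1 site (6.75%) and the repeats at either spacing (0.00914%) were found in no window of a member. A match is a description of the letters and shows no binding.

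The windows of Nr4a1, Nr4a2 and Egr2 are shown because these genes had the widest range over the tRA mice within their families. Capitals mark TGACG on either strand, the CArG box and the Egr site, which do not overlap each other here. The Nr4a1 window is chr15:101266596-101266845 on the plus strand, within an intron of longer transcripts of the gene. The Nr4a2 window is chr2:57124004-57124253 on the minus strand, just before the gene. The Egr2 window is chr10:67537619-67537868 on the plus strand, within an intron of a longer transcript. Each is given from 5′ to 3′.
Nr4a1: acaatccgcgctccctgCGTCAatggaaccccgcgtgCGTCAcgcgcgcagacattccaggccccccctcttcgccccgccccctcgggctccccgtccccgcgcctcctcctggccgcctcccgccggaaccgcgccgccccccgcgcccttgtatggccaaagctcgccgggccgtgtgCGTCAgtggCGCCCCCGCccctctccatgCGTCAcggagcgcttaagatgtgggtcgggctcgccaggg
Nr4a2: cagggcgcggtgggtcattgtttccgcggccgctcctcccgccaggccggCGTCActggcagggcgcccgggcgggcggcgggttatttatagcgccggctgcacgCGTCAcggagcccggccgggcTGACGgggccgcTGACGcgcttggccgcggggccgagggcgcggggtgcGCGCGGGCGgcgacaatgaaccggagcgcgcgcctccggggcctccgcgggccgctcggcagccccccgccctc
Egr2: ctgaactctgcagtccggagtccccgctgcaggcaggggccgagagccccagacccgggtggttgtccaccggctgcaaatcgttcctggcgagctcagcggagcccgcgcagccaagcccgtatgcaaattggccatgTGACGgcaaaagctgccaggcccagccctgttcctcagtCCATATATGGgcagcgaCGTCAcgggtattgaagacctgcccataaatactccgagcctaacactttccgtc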

How the data were processed

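Splenocyte RNA of 4 tRA and 4 control mice was sequenced from TruSeq v2 libraries run on 1 lane. The authors deposited raw counts per gene, without normalization, for each mouse. The study's methods name ea-utils and Btrim for trimming, Bowtie2 and Tophat2 for alignment and HTSeq for counting, whereas the submitters' processing notes name STAR 2.5.2b, featureCounts 1.5.1, DESeq2 1.26.0 and GRCm38. Whether counting used the strand is not given in the sources used here. The authors' DESeq2 table, which holds their fold changes and p-values, was not used.

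Of 51826 identifiers, 51633 matched GENCODE M21. The tools were edgeR 4.0.16, DESeq2 1.42.0 and limma 3.58.1 under R 4.3.3, and for figures matplotlib 3.10.9 under Python 3.11.15. Genes were kept by filterByExpr (minimum count 10), scaled by TMM and tested by edgeR's quasi-likelihood test at an FDR under 0.1. CPM are TMM-scaled, and log2 CPM used a prior count of 2. The fits were tried on simulated counts with the same dispersion for every gene and both groups. This does not cover the larger spread among the tRA mice in 9 of the 10 members.

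The 10 members and all lists were chosen with earlier results of these data known. The text names all members, of each pathway list the 2 largest and 2 smallest log2 fold changes and the most abundant gene per length, of each marker list described its most abundant gene, and the 5 genes most like the members; others are named as such, and 2 genes that the rule names are not reported here. Alternatives were each mouse left out in turn, the replicate number as a block, limma-voom, DESeq2, a minimum of 10 counts in every library, no filter, and scaling by RLE or by library size. Correlations between 9 pairs of members had been planned. They are not given, since tRA mice 3 and 4 lie apart from the rest for most members. A value over all 8 mice would mostly measure that separation, and with under 6 tRA mice on either side of it the relation within a side was not tested.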

Additional observations from a re-analysis of the deposited data

Results flagged for a closer look

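Among 118 groups of 4 mice, for the 59 genes that the naming rule gives, 7 held a mouse that Dixon's criterion marks as extreme, from its distance to the nearest other mouse over the range of the group, where chance gives about 1 group in 20. For 5 of the 7 this was control mouse 3. It was high for Egr4 at 1.47 CPM, for Hspa1a at 942 CPM and for Hsp90aa1 at 1617 CPM, and low for Klf3 at 231 CPM and Klf7 at 21.1 CPM. The other 2 were of tRA mouse 1, which stood above the other tRA mice for Srf at 123 CPM and for Lck at 568 CPM. No group of a member was among the 7.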

How the results depend on the processing

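The count of genes at an FDR under 0.1 was 0 by edgeR, 27 by DESeq2, 1 by limma-voom and 6 without a filter on low counts, and it ranged from 0 to 3 when each mouse was left out; the cause was not tested. With the replicate block it was 0, the median log2 fold change of the members was -0.62, and 1200 genes had an unadjusted p under 0.05. The titles give mice with the same number nothing else in common. Their deviations correlated at 0.157, -0.0229, -0.014 and 0.259. Mice with different numbers were not compared in this way, so these values cannot settle whether same-number mice shared anything else. The members' median ranged from -0.80 to -0.16 when each mouse was left out, and it was -0.64 by limma-voom. DESeq2 called 1 AP-1 gene and 1 heat shock gene where edgeR called 0, and no other alternative called a gene of the 8 lists beside the members. Leaving out single mice changed the sign of 10 of 49 genes that the rule names outside the members and moved the log2 fold change of 34 of them by over 1.5 times or in sign. The 10 ranged from -0.153 to 0.0801 for Dusp6, -0.30 to 0.19 for Fosl2, -0.16 to 0.93 for Hbb-bs, -0.0699 to 0.39 for Il2, -0.13 to 0.0138 for Lck, -0.0128 to 0.13 for Ncoa3, -0.016 to 0.19 for Ncor1, -0.0265 to 0.0497 for Plcg2, -0.67 to 0.00182 for Tagap and -0.0801 to 0.22 for Tox2. The medians of 4 of the 8 lists changed sign under some alternative, all from values near 0: without control mouse 3 the MAP kinase, calcium and nuclear receptor lists were at -0.0022, -0.0004 and -0.0128, without tRA mouse 4 the last was at -0.0006, and the downstream list ranged from -0.08 to 0.04 when each mouse was left out. The alternatives planned for correlations between members were not run. Counts of the members were 270 or more in every mouse, so depth does not limit their values, whereas Egr4 and Il2 rest on few counts.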
